A study of Mus musculus with 13 samples.

Results

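This account covers 10 NF-kB genes in blood stem cells: the subunit genes Rela, Relb, Nfkb1 and Nfkb2, and the genes Nfkbia, Nfkbie, Tnfaip3, Nfkbiz, Bcl3 and Birc3, which encode inhibitors and modulators that NF-kB itself induces. They were chosen by name, as a list of subunits and target inhibitors, and all 10 were among the 24015 gene symbols of the count table and among the 12536 genes that passed the filter on low counts. The RNA came from 13 libraries of haematopoietic stem cells (HSCs), with 100 cells sorted from mouse bone marrow behind each library. Every donor HSC population descended from 1 transplanted Vwf+ HSC, and recipients were classed by the blood lineages that this cell supplied over 16 weeks. PLT-HSC (3 libraries) came from recipients with P-restricted output, PEM-HSC (6 libraries) from recipients with PEM-restricted output, and MUL-HSC (4 libraries) from recipients with multilineage output. All 3 groups carried the C57BL/6 strain label and shared 1 sort gate: lineage-negative, Sca-1+ and Kit+ cells (LSK) that were Flt3-, CD150+, CD48-, CD45.2+ and Gata1-. Ages and the number of recipients behind each group are not stated in the labels, and libraries of a group may share a recipient. The p-values therefore measure the spread among these libraries, part of which may be technical.

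NF-kB is a family of transcription factors that act as dimers. In resting cells the dimers of the canonical arm, above all Rela with the Nfkb1 product, are held in the cytoplasm by IkB proteins such as those encoded by Nfkbia and Nfkbie; signals from receptors for TNF, interleukin-1 or microbial products activate the IkB kinase, which marks IkB for degradation and frees the dimer. The freed factor then transcribes its own inhibitors, so that transcripts of Nfkbia, Nfkbie and Tnfaip3 are widely used as readouts of recent NF-kB activity as well as being the brakes on it. A separate, non-canonical arm processes the Nfkb2 product and works through Relb. In haematopoietic stem cells, NF-kB is known for roles in survival, in the response to inflammation and in maintenance of the stem cell pool.

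Sequences around the start sites of some members are shown because, as background, NF-kB induces several of the members. Nfkbia and Bcl3 are the 2 members with an unadjusted edgeR p under 0.05 in both comparisons with MUL-HSC. The windows run from 250 bases before to 50 bases after the start of the transcript, on the gene's own strand, and are RefSeq sequences of build GRCm38.p6; capitals mark matches to the kappaB consensus, a 10-letter motif searched on both strands. Nfkbia (chr12:55492598-55492897, minus strand) and Bcl3 (chr7:19822706-19823005, minus strand) are followed by Birc3 (chr9:7873121-7873420, minus strand), whose RNA was also compared with that of Nfkbia, and by the most upstream window of the subunit gene Nfkb2 (chr19:46304487-46304786, plus strand).
Nfkbia: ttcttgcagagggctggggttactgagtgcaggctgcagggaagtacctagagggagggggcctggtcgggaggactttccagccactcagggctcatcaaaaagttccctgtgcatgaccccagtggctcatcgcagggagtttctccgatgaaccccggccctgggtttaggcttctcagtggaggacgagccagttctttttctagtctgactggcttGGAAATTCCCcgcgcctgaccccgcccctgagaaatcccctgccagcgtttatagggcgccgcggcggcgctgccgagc
Bcl3: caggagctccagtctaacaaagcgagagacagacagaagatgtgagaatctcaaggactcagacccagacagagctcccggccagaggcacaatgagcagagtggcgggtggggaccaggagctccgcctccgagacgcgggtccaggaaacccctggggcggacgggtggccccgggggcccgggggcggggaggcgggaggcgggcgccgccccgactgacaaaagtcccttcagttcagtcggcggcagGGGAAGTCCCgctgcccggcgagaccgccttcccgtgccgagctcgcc
Birc3: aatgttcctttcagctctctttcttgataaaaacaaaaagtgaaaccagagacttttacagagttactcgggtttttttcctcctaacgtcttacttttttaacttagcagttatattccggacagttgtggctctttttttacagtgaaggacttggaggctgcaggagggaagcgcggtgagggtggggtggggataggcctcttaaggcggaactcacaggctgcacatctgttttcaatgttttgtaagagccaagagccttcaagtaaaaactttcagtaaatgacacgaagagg
Nfkb2: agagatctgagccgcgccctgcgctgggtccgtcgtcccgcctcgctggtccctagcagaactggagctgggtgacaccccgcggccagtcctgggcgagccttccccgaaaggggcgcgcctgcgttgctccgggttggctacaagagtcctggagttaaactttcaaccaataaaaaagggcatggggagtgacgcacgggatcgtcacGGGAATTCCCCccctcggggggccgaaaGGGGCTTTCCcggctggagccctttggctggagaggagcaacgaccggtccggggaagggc
The Nfkbia window held 1 match, GGGAATTTCC on the opposite strand, at position -29 where 0 is the first transcribed base. Bcl3 held GGGACTTCCC on the opposite strand at position 2. No match to these letters was present in the Birc3 window. In Nfkb2, 4 overlapping or reverse-strand matches merged into 2 stretches, among them GGGAATTCCC at position -39 and GGGGCTTTCC at position -11. Of the 10 members, 7 had at least 1 window in the table and 5 of these 7 (Nfkb2, Nfkbia, Nfkbie, Tnfaip3 and Bcl3) held a match, against 5.14% of 27025 genes and 4.51% of 32851 windows of 300 bases. These 7 members had 10 windows, and they were listed in part as known targets of NF-kB, so their share with a match is not a test. A match describes the letters and is not evidence of binding in these cells.

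Gene counts ran from 29017378 to 32437607 in PLT-HSC libraries, from 22913695 to 28013676 in PEM-HSC libraries and from 16371921 to 41367057 in MUL-HSC libraries, and levels are given as CPM, counts scaled to the gene total of the library. A floor of 3 counts amounts to between 0.0725 and 0.183 CPM, depending on the library. Transcripts of 10 stem cell markers, among them Kit, Ly6a, Procr and Hlf, were all detected in every group and summed to 2487 to 3189 CPM in PLT-HSC, 2332 to 2795 CPM in PEM-HSC and 1733 to 2516 CPM in MUL-HSC. Transcripts of Cd48, Flt3 and Gata1, which the gate lists as negative, summed to 6.47 to 25.0 CPM in PLT-HSC and 2.94 to 22.4 CPM in PEM-HSC. In MUL-HSC replicates 1 and 2 this sum was 87.9 and 89.7 CPM, against 13.4 and 34.3 CPM in replicates 3 and 4, so the members' fold changes against MUL-HSC are also given without these 2 libraries. In bulk RNA of 100 cells, a higher share of cells with a transcript and more of it per cell cannot be told apart.

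Nfkbia, which encodes the main cytoplasmic inhibitor IkB alpha, was the most abundant member and the one that separated the groups most cleanly. It stood at 302, 311 and 276 CPM in the 3 PLT-HSC libraries; in PEM-HSC the lowest library was at 229, the median at 315 and the highest at 373 CPM. The MUL-HSC libraries stood at 163, 151, 189 and 192 CPM. All PLT-HSC and all PEM-HSC libraries were higher than all 4 MUL-HSC libraries, and the lineage-restricted groups overlapped each other. The mean was 297 ± 18.5 CPM in PLT-HSC (SD, n = 3), 308 ± 58.1 CPM in PEM-HSC (n = 6) and 174 ± 19.9 CPM in MUL-HSC (n = 4).

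As a ratio of means, Nfkbia was 1.71-fold higher in PLT-HSC than in MUL-HSC and 1.77-fold higher in PEM-HSC than in that group. The quasi-likelihood test of edgeR gave log2 fold changes of 0.78 (SE 0.20, adjusted p = 0.26) and 0.81 (SE 0.18, adjusted p = 0.311) for these comparisons, after Benjamini-Hochberg adjustment over 12536 genes, so neither difference was called. The direction held in 12 of 12 and in 24 of 24 pairs of libraries. By unadjusted p, Nfkbia ranked 69 and 12 among the 12536 genes in these comparisons, which share the MUL-HSC libraries. PLT-HSC minus PEM-HSC was -0.03 (SE 0.19, edgeR adjusted p = 1) on the log2 scale. DESeq2, an alternative count model, called Nfkbia in both comparisons with MUL-HSC (adjusted p = 0.0109 and 0.000448), while limma voom did not (adjusted p = 0.284 and 0.383). With MUL-HSC replicates 1 and 2 left out, which was decided after the data had been seen, the log2 fold changes were 0.68 and 0.72 (edgeR adjusted p = 0.963 and 1).

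Nfkbia had the smallest spread between libraries of the 10 members. Its coefficient of variation was 6.24%, 18.9% and 11.4% in PLT-HSC, PEM-HSC and MUL-HSC, whereas the other 9 members ran from 30.2% (Relb in MUL-HSC) to 126% (Relb in PLT-HSC).

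**Figure D1:**
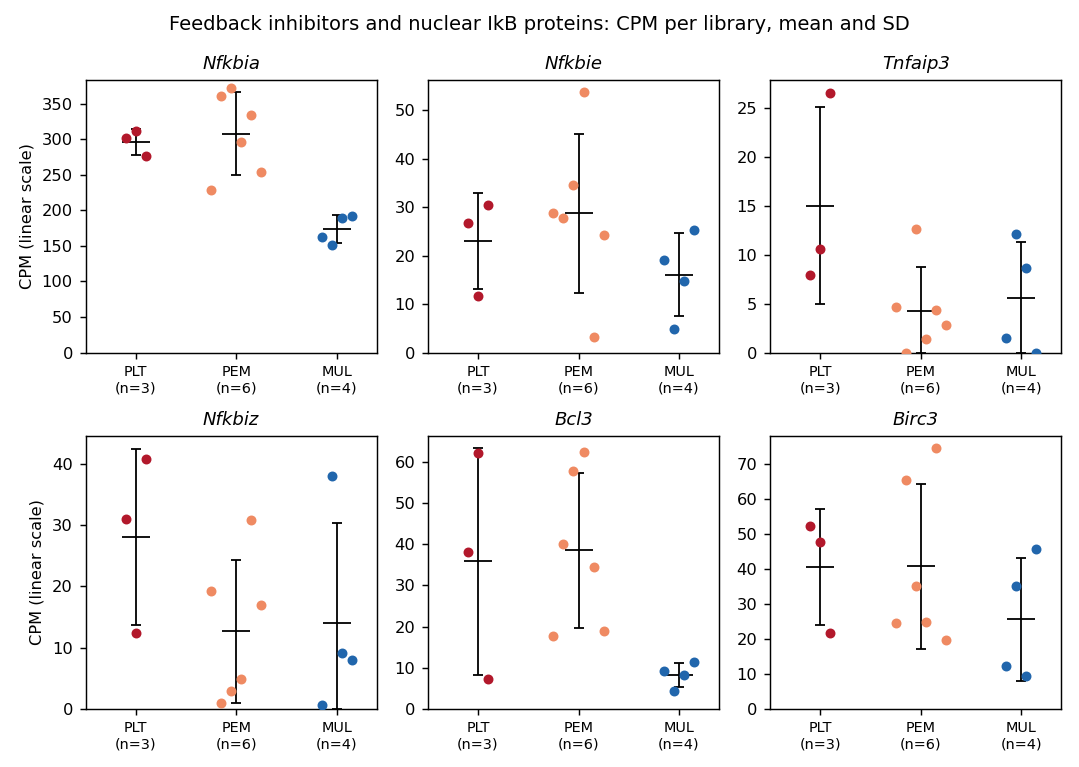
CPM of 6 inhibitor and modulator genes (y axes, linear, each from 0) by group (x axis: PLT-HSC, PEM-HSC, MUL-HSC); points are libraries, horizontal bars means and whiskers SD, cut off at 0. All PLT-HSC and PEM-HSC libraries lay above all MUL-HSC libraries for Nfkbia, while for Bcl3 1 PLT-HSC library, at 7.18 CPM, lay among the MUL-HSC libraries.

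Bcl3, an atypical nuclear IkB protein that binds homodimers of the Nfkb1 and Nfkb2 products and can turn them into activators, had the largest fold difference from MUL-HSC among the members. Its levels in PLT-HSC were 38.1, 62.2 and 7.18 CPM; PEM-HSC ran from 17.7 CPM over a median of 37.3 to 62.4 CPM, and MUL-HSC libraries stood at 9.28, 4.40, 8.25 and 11.4 CPM. All 6 PEM-HSC libraries and 2 of 3 PLT-HSC libraries lay above all MUL-HSC libraries, and PLT-HSC replicate 3 lay within the MUL-HSC range. Bcl3 averaged 35.8 ± 27.6 CPM in PLT-HSC, 38.6 ± 18.8 CPM in PEM-HSC and 8.32 ± 2.92 CPM in MUL-HSC.

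For Bcl3 the log2 fold change was 2.18 (SE 0.66, edgeR adjusted p = 0.461) in PLT-HSC against MUL-HSC and 2.20 (SE 0.61, edgeR adjusted p = 0.516) in PEM-HSC against MUL-HSC. Bcl3 in PLT-HSC minus PEM-HSC was -0.02 (SE 0.61, edgeR adjusted p = 1). DESeq2 gave an adjusted p of 0.0636 and 0.012 for the comparisons of PLT-HSC and of PEM-HSC with MUL-HSC. Leaving out PLT-HSC replicate 2 brought the log2 fold change of PLT-HSC against MUL-HSC to 1.43 and leaving out replicate 3 brought it to 2.67. Bcl3 overlaps the antisense gene model Gm16175 in GENCODE M21, and the labels do not state whether counting used strand.

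Over the 10 members together, edgeR called 0 in PLT-HSC against MUL-HSC, where 0.0479% of all tested genes were called, 0 in PEM-HSC against MUL-HSC, against 0.00798% of all genes, and 0 in PLT-HSC against PEM-HSC, where 0% of genes were called. At an unadjusted p under 0.05 there were 2 members (Nfkbia and Bcl3) in PLT-HSC against MUL-HSC, against 7.37% of all tested genes. The same 2 members passed that limit in PEM-HSC against MUL-HSC, against 5.93%, and 0 did in PLT-HSC against PEM-HSC, against 3.73%. DESeq2 called 1 member (Nfkbia), 2 members (Nfkbia and Bcl3) and 0 members in the same 3 comparisons, where it called 2.12%, 1.43% and 0.922% of the 12364 genes to which it gave an adjusted p. Limma voom called 0 members in each, against 0%, 0.00798% and 0.00798% of all tested genes. Higher CPM with no overlap between groups was seen for 1 member in PLT-HSC against MUL-HSC (Nfkbia), against 3.75% of all genes, for 2 members in PEM-HSC against MUL-HSC (Nfkbia and Bcl3), against 0.862%, and for 0 in PLT-HSC against PEM-HSC, against 1.1%.

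The sign of the fold change was positive for 8 of 10 members in PLT-HSC against MUL-HSC, against 52.4% of all tested genes, with a median log2 fold change of 0.61 for the members and 0.04 for all genes. In PEM-HSC against MUL-HSC it was positive for 5 of 10 (all genes 50.7%), with medians of 0.0057 and 0.0094. In PLT-HSC against PEM-HSC it was again positive for 5 of 10 (all genes 51.5%), with medians of 0.0062 and 0.02. The members thus did not move as a block. Nfkbia, Nfkbie, Bcl3, Birc3 and the subunit gene Nfkb2 had positive fold changes against MUL-HSC in both comparisons, and the subunit genes Relb and Nfkb1 negative ones. Rela, Tnfaip3 and Nfkbiz were positive for PLT-HSC and negative for PEM-HSC. Apart from Nfkbia and Bcl3, no member had an unadjusted edgeR p under 0.05, so these signs are descriptions. With the number of detected genes as a covariate, Nfkbie turned to -0.24 in PLT-HSC against MUL-HSC; Nfkb1 turned to 0.17 there without PLT-HSC replicate 2 and to 0.07 in PEM-HSC without MUL-HSC replicate 2.

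When MUL-HSC replicates 1 and 2 were left out, edgeR called 0 of the 10 members in either comparison with that group. The log2 fold change of Bcl3 was then 1.98 for PLT-HSC and 1.999 for PEM-HSC (adjusted p = 0.963 and 1), and that of Birc3 0.65 and 0.62. Nfkbie gave 0.21 and 0.54, Tnfaip3 1.76 and -0.015, and Nfkbiz 1.70 and 0.59. Among the subunit genes, Rela gave -0.17 and -0.82, Relb -1.17 and -0.32, Nfkb1 -0.097 and -0.14, and Nfkb2 -0.20 and -0.12. The signs of Rela and Nfkb2 for PLT-HSC, and of Nfkbiz and Nfkb2 for PEM-HSC, turned.

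**Figure D2:**
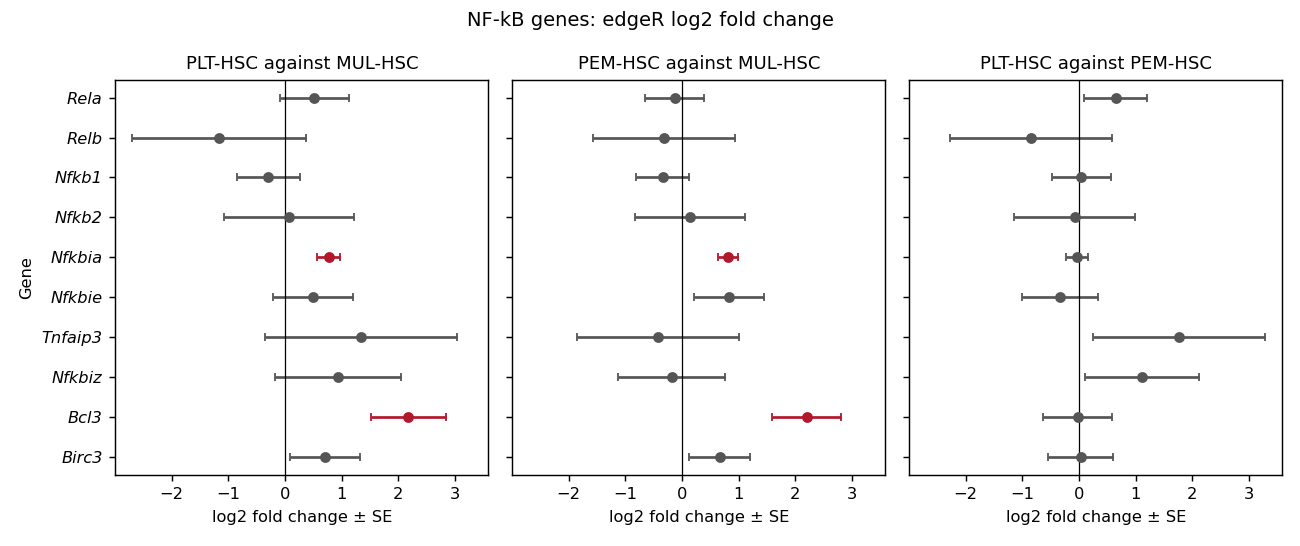
Log2 fold change (x axis) with its SE for the 10 genes (y axis) in 3 comparisons; red marks an unadjusted edgeR p under 0.05. Nfkbia and Bcl3 stand to the right of 0 in both comparisons with MUL-HSC, at 0.78 and 2.18 for PLT-HSC and at 0.81 and 2.20 for PEM-HSC, and near 0 between PLT-HSC and PEM-HSC.

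The other cytoplasmic inhibitor gene, Nfkbie (IkB epsilon), had lower counts than Nfkbia in every library. Its libraries stood at 26.7, 11.8 and 30.4 CPM in PLT-HSC, at 3.23 to 53.8 CPM with a median of 28.2 in PEM-HSC, and at 19.2, 4.90, 14.8 and 25.2 CPM in the MUL-HSC libraries. The groups overlapped, and the log2 fold change was 0.49 (SE 0.71, edgeR adjusted p = 0.999) in PLT-HSC and 0.83 (SE 0.62, adjusted p = 0.999) in PEM-HSC, each against MUL-HSC. PEM-HSC replicate 5, at 3.23 CPM, was below every other library, while the other 5 PEM-HSC libraries stood at 24.2 CPM or more.

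Tnfaip3 encodes a ubiquitin-editing enzyme that shuts off signalling upstream of the IkB kinase, and its transcript was scarce. PLT-HSC libraries stood at 7.89, 10.5 and 26.5 CPM. PEM-HSC libraries ran from 0 over a median of 3.57 to 12.6 CPM, and MUL-HSC libraries stood at 1.53, 12.1, 8.61 and 0 CPM. The 0 counts, in PEM-HSC replicate 2 and MUL-HSC replicate 4, lie in libraries of 22913695 and 41367057 gene counts, where the floor of 3 counts is 0.131 and 0.0725 CPM. The mean of PLT-HSC, 15.0 ± 10.1 CPM, was 2.69 times that of MUL-HSC (5.57 ± 5.76 CPM), and the log2 fold change of 1.34 had an SE of 1.70 (edgeR adjusted p = 0.999). Against PEM-HSC (4.28 ± 4.43 CPM) the PLT-HSC log2 fold change was 1.77 (SE 1.52, adjusted p = 1), with the PLT-HSC library above the PEM-HSC one in 16 of 18 pairs. Leaving out PLT-HSC replicate 3 gave log2 fold changes against MUL-HSC and PEM-HSC of 0.78 and 1.19.

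Nfkbiz, a nuclear IkB protein that switches on secondary response genes with the Nfkb1 product, stood at 31.0, 12.4 and 40.8 CPM in PLT-HSC. It ranged from 0.916 over a median of 10.9 to 30.9 CPM in PEM-HSC, and MUL-HSC libraries stood at 0.676, 38.0, 9.10 and 8.03 CPM. Within MUL-HSC it thus spanned more than the difference between group means, and replicate 2 alone set its mean of 13.9 ± 16.5 CPM. The log2 fold change of PLT-HSC was 0.93 (SE 1.12) against MUL-HSC and 1.11 (SE 1.01) against PEM-HSC, and that of PEM-HSC against MUL-HSC was -0.18 (SE 0.95); the edgeR adjusted p was 0.999 or above in each. Without MUL-HSC replicate 2 the values against MUL-HSC were 2.23 for PLT-HSC and 1.11 for PEM-HSC, which turns the sign for PEM-HSC.

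Birc3 encodes a ubiquitin ligase of TNF receptor complexes that also restrains the non-canonical arm. Its 3 PLT-HSC libraries stood at 52.3, 47.8 and 21.7 CPM. PEM-HSC libraries ran from 19.8 over a median of 30.0 to 74.8 CPM, and MUL-HSC libraries stood at 12.3, 35.1, 9.35 and 45.7 CPM. The means of PLT-HSC and PEM-HSC, 40.6 ± 16.5 and 40.8 ± 23.6 CPM, were close to each other and above the 25.6 ± 17.6 CPM of MUL-HSC, with log2 fold changes against MUL-HSC of 0.70 (SE 0.62, edgeR adjusted p = 0.98) and 0.67 (SE 0.54, adjusted p = 0.999).

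Among the subunits, Rela encodes the main activating partner of canonical dimers. Its PLT-HSC libraries stood at 77.5, 32.8 and 89.1 CPM, its PEM-HSC libraries at 15.7 to 74.8 CPM with a median of 37.5, and its MUL-HSC libraries at 23.5, 10.7, 64.7 and 84.9 CPM. MUL-HSC replicates 1 and 2 were low and replicates 3 and 4 high, so that the group overlapped both others. The log2 fold change was 0.52 (SE 0.61) in PLT-HSC against MUL-HSC, -0.13 (SE 0.51) in PEM-HSC against MUL-HSC and 0.65 (SE 0.55) in PLT-HSC against PEM-HSC, with edgeR adjusted p of 0.999, 0.999 and 1. Without MUL-HSC replicates 1 and 2 the first of these was -0.17.

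Nfkb1, the precursor of the DNA-binding partner of Rela, had levels of 54.6, 17.3 and 171 CPM in PLT-HSC, spanning the range of all libraries. In PEM-HSC it ran from 41.9 over a median of 72.2 to 115 CPM, and in MUL-HSC it stood at 46.9, 155, 58.9 and 109 CPM. Group means of 80.9 ± 80.1, 74.9 ± 28.1 and 92.4 ± 49.6 CPM in PLT-HSC, PEM-HSC and MUL-HSC were closer together than the libraries of any group. Its log2 fold change against MUL-HSC was -0.29 (SE 0.56) for PLT-HSC and -0.34 (SE 0.47) for PEM-HSC, at an edgeR adjusted p of 0.999 in both.

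Relb and Nfkb2, the pair of the non-canonical arm, were the scarcest subunits of the list. Relb stood at 3.00, 12.4 and 0 CPM in PLT-HSC, at 0.0436 to 20.9 CPM with a median of 10.6 in PEM-HSC, and at 8.70, 15.2, 9.65 and 16.0 CPM in the MUL-HSC libraries. The lowest PEM-HSC value is 1 count, below the floor of 3. All 4 MUL-HSC libraries had Relb at 8.70 CPM or more, and the groups overlapped; the log2 fold change was -1.16 (SE 1.53, edgeR adjusted p = 0.999) in PLT-HSC and -0.32 (SE 1.25, adjusted p = 0.999) in PEM-HSC, each against MUL-HSC. Single libraries moved these values: the PLT-HSC one was -3.04 without PLT-HSC replicate 2 and -0.59 without replicate 3, and the PEM-HSC one was -0.055 without PEM-HSC replicate 2. With voom they were -4.07 and -1.42.

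Nfkb2 lay between 2.18 and 9.57 CPM in all 13 libraries, with means of 5.37 ± 3.41 CPM in PLT-HSC, 5.53 ± 2.50 CPM in PEM-HSC and 4.96 ± 1.59 CPM in MUL-HSC. Its log2 fold changes were 0.07 (SE 1.15), 0.14 (SE 0.98) and -0.08 (SE 1.07) in the comparisons of PLT-HSC with MUL-HSC, PEM-HSC with MUL-HSC and PLT-HSC with PEM-HSC, with edgeR adjusted p of 0.999, 0.999 and 1. In GENCODE M21 the Nfkb2 exons overlap Psd and AC114539.1 on the other strand; Nfkb2 itself had 50 to 302 counts per library.

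**Figure D3:**
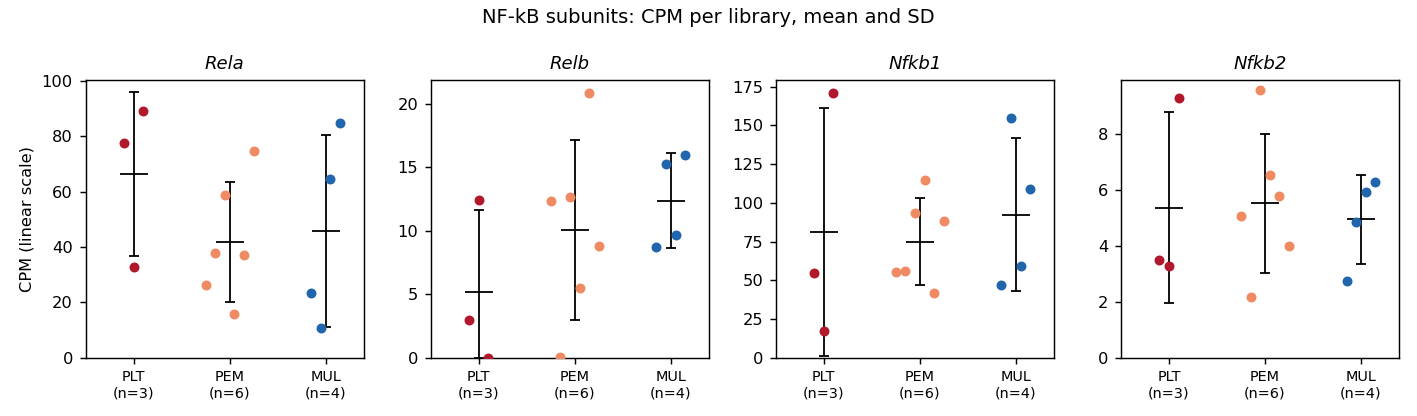
CPM of the 4 subunit genes (y axes, linear, each from 0) by group (x axis); points are libraries, horizontal bars means and whiskers SD, cut off at 0. The groups overlap for every subunit, and Nfkb1 in PLT-HSC spans 17.3 to 171 CPM.

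Levels can be compared between genes only per length. Divided by the exon length in GENCODE M21, which is of a later build than the counts, the mean level of Nfkbia was 184, 191 and 108 CPM per kb for PLT-HSC, PEM-HSC and MUL-HSC. Next came Rela, at 21.6, 13.6 and 14.95 CPM per kb in the same groups, and Bcl3, at 14.5, 15.6 and 3.36 CPM per kb. In the mean over all libraries, Nfkbie (7.71 CPM per kb), Birc3 (7.20) and Nfkb1 (6.77) followed, then Nfkbiz (3.31), Relb (2.48), Nfkb2 (1.16) and Tnfaip3 (0.989). From Rela downward, neighbours in this order differed by less than the spread between libraries.

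Across libraries, Nfkbia and Bcl3 varied together. Pearson r of log2(CPM + 1) was 0.85 and Spearman rho 0.79 over the 13 libraries, which include the difference between groups; with group means removed r was 0.64, and within the 6 PEM-HSC libraries it was 0.78. Without the 2 libraries farthest from the median of Nfkbia, MUL-HSC replicates 1 and 2, r was 0.77. Birc3 and Nfkbia gave 0.57 over all libraries, 0.45 with group means removed and 0.72 within PEM-HSC. All points share library preparation and scaling to the library total, and these correlations are descriptions.

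The subunit genes did not follow that pair. With group means removed, r with Nfkbia was 0.34 for Rela, -0.11 for Relb, -0.20 for Nfkb1 and 0.07 for Nfkb2. For Bcl3, r with these subunit genes was -0.11, 0.33, -0.54 and -0.24 in the same order. Nfkb1 and Nfkb2 varied with each other (0.61), as did Nfkb2 with Tnfaip3 (0.56) and Tnfaip3 with Nfkbiz (0.48). Nfkbiz ran opposite to Bcl3 (-0.56), Nfkbie (-0.52) and Nfkbia (-0.48). Of the 45 pairs of members, 5 had an absolute pooled r over 0.5 and the median pooled r was 0.05.

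**Figure D4:**
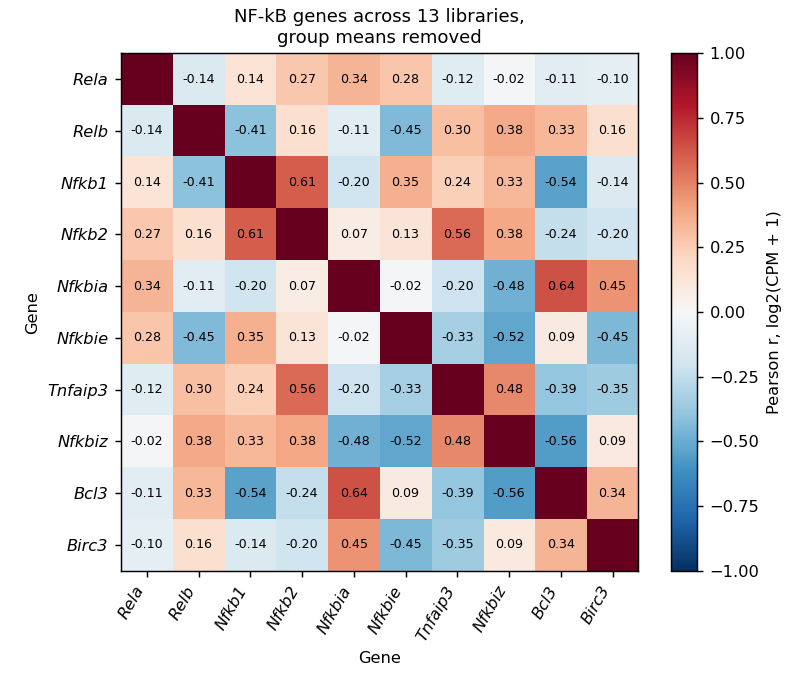
Pearson r of log2(CPM + 1) between the 10 genes (both axes) over 13 libraries after removing group means; colour runs from -1 to 1. Nfkbia pairs with Bcl3 (0.64) and Birc3 (0.45) and runs opposite to Nfkbiz (-0.48). Nfkb1 pairs with Nfkb2 (0.61) and runs opposite to Bcl3 (-0.54).

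Genes outside the list whose RNA was most like that of Nfkbia over the 13 libraries, among 8344 genes with a mean of at least 10 CPM, were Gadd45g (r = 0.90), Vwf (0.90), H2-D1 (0.89), H2-K1 (0.89) and Ramp2 (0.89). Gadd45g, a stress-induced growth arrest gene, averaged 105, 90.8 and 16.0 CPM in PLT-HSC, PEM-HSC and MUL-HSC. Vwf, the clotting factor gene used to choose the transplanted cells, averaged 136, 78.2 and 10.1 CPM in these groups, and the class I histocompatibility gene H2-K1 4926, 5191 and 3706 CPM. With group means removed, r with Nfkbia was 0.58 for Gadd45g, 0.62 for Vwf, 0.665 for H2-D1, 0.70 for H2-K1 and 0.60 for Ramp2. Bcl3 ranked 15 by the pooled measure.

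Markers of other cell types were measured beside these results. The sum of 11 macrophage markers was 80.8 to 252 CPM in PLT-HSC, 91.6 to 416 CPM in PEM-HSC and 36.6 to 72.3 CPM in MUL-HSC, so it separated the groups as Nfkbia did, and its r with Nfkbia was 0.84 over all libraries and 0.59 with group means removed. Cd68, a lysosomal protein, made up much of it, at 123 ± 85.0 CPM in PLT-HSC, 80.0 ± 81.2 CPM in PEM-HSC and 14.0 ± 3.86 CPM in MUL-HSC. C1qb, a complement subunit, averaged 11.5 ± 9.01, 13.6 ± 11.4 and 2.704 ± 3.44 CPM over these groups and was detected in every PLT-HSC and PEM-HSC library and in 2 of 4 MUL-HSC libraries. C1qc and C1qa, also on the list, did not share this pattern. C1qc averaged 7.12 ± 5.25, 11.4 ± 8.34 and 6.73 ± 6.25 CPM, and C1qa 0.185, 2.13 and 0.192 CPM. Vcam1 averaged 0.0103, 6.27 and 0.653 CPM, Mrc1 6.55, 1.51 and 0.0812 CPM, and Cd5l 0, 4.58 and 2.59 CPM. Hmox1, which encodes a haem-degrading enzyme, averaged 32.7 ± 25.5, 27.9 ± 18.0 and 8.48 ± 7.30 CPM, and the receptor gene Axl 11.2 ± 10.3, 23.3 ± 12.6 and 16.2 ± 13.8 CPM. Of the other defining macrophage genes, Csf1r was at 0 in every PLT-HSC and MUL-HSC library and had 1 count in 1 PEM-HSC library. Emr1, which encodes F4/80, was at 0 in every MUL-HSC library, had 110 and 2 counts in PLT-HSC replicates 2 and 3, and had 287 counts in PEM-HSC replicate 3 alone of that group. Of the 11 macrophage markers, 9, 11 and 9 had a count in any library of PLT-HSC, PEM-HSC and MUL-HSC. The part of these transcripts in the Nfkbia and Bcl3 differences was not tested.

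**Figure D5:**
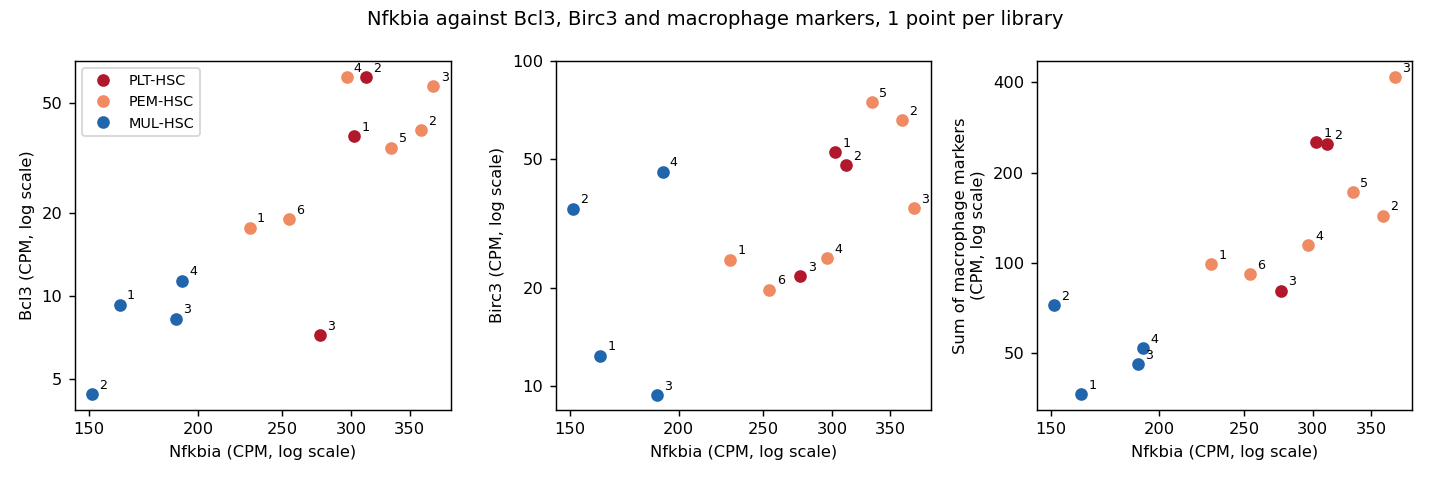
Nfkbia (x axes, CPM, log scale) against Bcl3, Birc3 and the sum of 11 macrophage markers (y axes, CPM, log scale), 1 point per library, numbered by replicate and coloured by group. MUL-HSC libraries lie at 151 to 192 CPM of Nfkbia with at most 11.4 CPM of Bcl3 and 72.3 CPM of macrophage markers, and PLT-HSC replicate 3 combines 276 CPM of Nfkbia with 7.18 CPM of Bcl3.

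Neutrophil markers summed to 188 to 725 CPM in PLT-HSC, 236 to 679 CPM in PEM-HSC and 278 to 383 CPM in MUL-HSC, with Ltf at 0 in every library. T and NK cell markers summed to 157 to 376, 92.5 to 364 and 122 to 232 CPM over these groups, with Cd3e, Cd3d, Cd3g, Cd4 and Cd8a at 0 throughout. B and plasma cell markers summed to 93.4 to 156, 101 to 184 and 101 to 165 CPM, with Ms4a1 and Pax5 at 0 throughout. Megakaryocyte and platelet markers summed to 658 to 986, 555 to 1221 and 685 to 1021 CPM, mast cell and basophil markers to 83.6 to 182, 68.3 to 146 and 91.1 to 127 CPM, and erythroid markers to 7.32 to 23.1, 12.3 to 58.4 and 0.116 to 25.4 CPM. These ranges overlapped between all groups, whereas the macrophage sums of PLT-HSC and PEM-HSC overlapped each other but not those of MUL-HSC. Within the T and NK cell sum, the only 2 genes with counts went opposite ways. Klrb1c averaged 183 ± 172, 93.7 ± 70.8 and 7.74 ± 15.4 CPM in PLT-HSC, PEM-HSC and MUL-HSC. Nkg7 averaged 48.9 ± 75.3, 83.2 ± 44.7 and 170 ± 35.0 CPM in the same order.

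Genes around the members in the pathway were read from the same fit. Of all tested genes, 52.4% were positive in PLT-HSC against MUL-HSC, 50.7% in PEM-HSC against MUL-HSC and 51.5% in PLT-HSC against PEM-HSC. Their median log2 fold changes were 0.04, 0.0094 and 0.02 in that order. An unadjusted edgeR p under 0.05 was found for 7.37%, 5.93% and 3.73% of them, and edgeR called 0.0479%, 0.00798% and 0%. These values stand beside every list that follows. The remaining subunit gene, Rel, was scarce: 2 of 3 PLT-HSC libraries and 3 of 6 PEM-HSC libraries had 0 counts, and all libraries ranged from 0 to 6.87 CPM. The MUL-HSC libraries all had counts, at 0.0901, 6.87, 1.955 and 0.169 CPM, of which the first is 2 counts. Of 4 further family genes (Rel, Nfkbib, Nfkbid and Nfkbil1), 0 were called in any comparison and 0 had an unadjusted edgeR p under 0.05; 0 of 4 were positive for PLT-HSC against MUL-HSC and 2 of 4 for PEM-HSC against MUL-HSC. Nfkbib, which encodes IkB beta, stood at 28.4 ± 5.65 CPM in PLT-HSC, 44.3 ± 17.0 CPM in PEM-HSC and 35.7 ± 2.61 CPM in MUL-HSC. Nfkbid, a further nuclear IkB gene, averaged 7.66, 7.60 and 11.3 CPM over these groups and Nfkbil1 6.37, 8.22 and 7.36 CPM.

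The IkB kinase and linear ubiquitin genes, 14 in all, had 9 positive fold changes in PLT-HSC against MUL-HSC and 7 in PEM-HSC against MUL-HSC (medians 0.19 and 0.07 on the log2 scale), with 0 called by edgeR and 0 at an unadjusted p under 0.05. Chuk, a catalytic subunit of the kinase, averaged 95.8, 68.9 and 91.0 CPM for PLT-HSC, PEM-HSC and MUL-HSC. Otulin, a deubiquitinase of linear chains, averaged 90.4, 133 and 132 CPM, and Sharpin, a subunit of the ligase that builds them, 90.2, 91.0 and 74.5 CPM. For the non-canonical arm, 6 of 8 genes were tested, with 5 and 3 positive in the comparisons of PLT-HSC and of PEM-HSC with MUL-HSC (medians 0.25 and 0.20) and 0 called. Birc2, the close relative of Birc3, averaged 105, 134 and 96.9 CPM over the groups in that order, Traf2, an adaptor of TNF receptors, 35.6, 46.6 and 24.6 CPM, and Ltbr, the lymphotoxin receptor, 17.6, 17.6 and 18.2 CPM.

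Receptors and adaptors upstream of the kinase had 27 of 32 genes tested, 15 of them positive in PLT-HSC and 15 in PEM-HSC against MUL-HSC (medians 0.11 and 0.03), with 0 called by edgeR. Only Il18r1, the interleukin-18 receptor gene, had an unadjusted p under 0.05 in any comparison, and it averaged 0, 4.55 and 2.44 CPM for PLT-HSC, PEM-HSC and MUL-HSC. Irak3, a brake on interleukin-1 and Toll-like receptor signalling, averaged 112, 118 and 115 CPM for PLT-HSC, PEM-HSC and MUL-HSC. Myd88, the shared adaptor of these receptors, averaged 87.5, 114 and 92.0 CPM, and the kinase gene Irak1 99.3, 77.0 and 80.5 CPM.

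Inflammatory target genes of NF-kB had 21 of 35 members tested, the other 14 being too low. Of the 21, 12 were positive in PLT-HSC and 14 in PEM-HSC against MUL-HSC, with medians of 0.13 and 0.21, and 0 were called by edgeR. Those with an unadjusted p under 0.05 in any comparison, Ccl5, Bcl2a1d and Vcam1, averaged 6.27 CPM or less in each group. Among the abundant targets, Tnfaip8 averaged 475 ± 154 CPM in PLT-HSC, 485 ± 44.3 CPM in PEM-HSC and 531 ± 58.1 CPM in MUL-HSC. Ltb, which encodes lymphotoxin beta, averaged 395 ± 215, 436 ± 58.9 and 311 ± 38.1 CPM, and Sod2, the mitochondrial superoxide dismutase, 251 ± 65.5, 283 ± 34.1 and 261 ± 46.8 CPM. In PLT-HSC against PEM-HSC, 7 of 21 were positive, with a median of -0.13.

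Immediate early and handling stress genes, which cell isolation can induce, had 16 of 20 tested members positive in PLT-HSC against MUL-HSC (median 0.55), 13 of 20 in PEM-HSC against MUL-HSC (median 0.13) and 15 of 20 in PLT-HSC against PEM-HSC (median 0.50), with 0 called by edgeR. Among all tested genes, 52.4%, 50.7% and 51.5% were positive in the same comparisons. Klf6 alone had an unadjusted p under 0.05, in PLT-HSC against PEM-HSC; it stood at 76.4 to 431 CPM with a median of 103 in PLT-HSC and at 38.8 to 101 CPM with a median of 74.4 in PEM-HSC, so that the groups overlapped. Fos stood at 1781, 78.0 and 468 CPM in the 3 PLT-HSC libraries, at 193 to 893 CPM with a median of 457 in PEM-HSC, and at 24.6, 588, 510 and 638 CPM in the MUL-HSC libraries. Dusp1 stood at 2401, 172 and 382 CPM in PLT-HSC, at 338 to 1429 CPM in PEM-HSC and, over the MUL-HSC libraries, at 108, 1626, 801 and 926 CPM, and Ier2 averaged 463, 533 and 478 CPM in the same groups. PLT-HSC replicate 1 was the highest and MUL-HSC replicate 1 the lowest for Fos and Dusp1; the part of handling in the Nfkbia difference was not tested.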

How the data were processed

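RNA of 13 libraries was measured by Smart-seq+ and Nextera XT sequencing, per the labels' protocols, without molecular identifiers, so counts hold PCR copies and floors cover counting error only. The submitters' processing notes name STAR, featureCounts, Trimmomatic and FastQC and build mm9; versions, annotation and strand mode: not given in the sources used here. Per gene symbol, the authors deposited raw counts with no normalization; its 92 ERCC spike-in rows (0.0191% to 0.0612% of counts) were left out of library totals and tests.

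The counts went into edgeR 4.0.16 (R 4.3.3): filterByExpr, TMM scaling and a robust quasi-likelihood fit with a term per group to all 13 libraries, Benjamini-Hochberg adjustment over all tested genes and a threshold of 0.05. SE is the log2 fold change divided by the square root of F. DESeq2 1.42.0 and limma 3.58.1 were alternatives. CPM uses the library's gene total; correlations use log2(CPM + 1). Between replicates, chi-square over degrees of freedom was 162.5 or more, so no library was a copy of another. Named genes were the members, the 5 most like Nfkbia, and the 3 most abundant genes of each pathway list where none was called. Rel, Emr1, Csf1r, Cd68, C1qa, C1qb, C1qc, Mrc1, Hmox1, Axl, Cd5l, Klrb1c and Nkg7 were named after their values were seen. The same holds for Il18r1, Ccl5, Bcl2a1d, Vcam1 and Klf6. Of the cell type markers, 4 were not matched (Ly6g, Ighm, Igkc and Trac), and Adgre1 and Jchain were matched by older symbols. The members and lists were chosen with earlier results of these data known.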

Additional observations from a re-analysis of the deposited data

Results flagged for a closer look

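Within groups of 4 or 6 libraries, 20 sets of values of the 10 members were examined for a library far from the rest. In 1 of them, Tnfaip3 in PEM-HSC, replicate 3 stood at 12.6 CPM, while the other 5 libraries stood at 4.60 CPM or lower. About 1 in 20 such sets is singled out by chance. PEM-HSC replicate 3 also had the highest macrophage marker sum of all libraries, 416 CPM. The part of these transcripts in its Tnfaip3 level was not tested.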

How the results depend on the processing

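Nfkbia and Bcl3 kept a positive log2 fold change against MUL-HSC in 23 of 23 settings in both comparisons, between 0.67 and 0.885 for Nfkbia and between 1.43 and 2.67 for Bcl3. DESeq2 called 1 member in PLT-HSC and 2 in PEM-HSC against MUL-HSC; the cause was not tested, and no other setting called a member. All genes called, 6 in PLT-HSC against MUL-HSC, became 11 with no filter, 14 at a mean of at least 10 CPM, 262 with DESeq2, 0 with voom, 1 with only the 2 groups fitted, 2 with the replicate block, 1 without MUL-HSC replicates 1 and 2, and 1 to 37 with a library left out (37 without PLT-HSC replicate 3). In PEM-HSC against MUL-HSC, 1 became 177 with DESeq2, 0 with only the 2 groups, the block or the detected-gene covariate, and 0 to 4 with a library left out. In PLT-HSC against PEM-HSC, 0 became 114 with DESeq2, 1 with voom and 0 to 2 with a library left out. Signs turned, with no member called, for PLT-HSC against MUL-HSC in Nfkb2 (-0.30 with the covariate) and Nfkbie (-0.24), and without MUL-HSC replicates 1 and 2 in Rela (-0.17) and Nfkb2 (-0.20). For PEM-HSC against MUL-HSC they turned in Nfkb2 (-0.079 with the covariate, -0.12 without MUL-HSC replicates 1 and 2), Tnfaip3 (0.91 voom, 0.74 block, 0.92 covariate) and Nfkbiz (0.054 voom, 0.60 covariate, 0.59 without MUL-HSC replicates 1 and 2). For PLT-HSC against PEM-HSC they turned in Nfkb1 (-0.25 voom, -0.025 block, -0.11 covariate). With single libraries left out, ranges that crossed 0 were, for PLT-HSC against MUL-HSC, -1.33 to 0.17 for Nfkb1 and -0.48 to 0.295 for Nfkb2. For PEM-HSC against MUL-HSC they were -0.45 to 0.33 for Rela, -0.54 to 0.069 for Nfkb1, -0.085 to 0.30 for Nfkb2, -1.13 to 0.33 for Tnfaip3 and -0.66 to 1.11 for Nfkbiz. For PLT-HSC against PEM-HSC they were -1.002 to 0.50 for Nfkb1, -0.62 to 0.15 for Nfkb2, -0.14 to 0.069 for Nfkbia, -0.77 to 0.47 for Bcl3 and -0.19 to 0.36 for Birc3. Same-numbered deviations correlated at -0.155 to 0.0597, which in so few and variable libraries cannot settle whether replicate numbers pair them. The replicate block gave Nfkbia 0.77 and 0.82 against MUL-HSC for PLT-HSC and PEM-HSC. With 3 to 6 libraries a group and a common biological coefficient of variation of 0.993, small differences of scarce members such as Tnfaip3 and Relb were not detectable.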
